A study of Mus musculus with 12 samples.

Results

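The response of liver cells to an iron salt while macrophages shared the culture was examined by comparing 3 arrays of the group RAW_FAC with 3 arrays of the group RAW. These are 6 of the 12 arrays of the study, and every gene with a probe set of its own, 18194 in all, was compared. All arrays carried RNA of BNL CL.2 cells, a mouse cell line of liver origin, grown in DMEM with fetal bovine serum and harvested after 24 h. In RAW the insert above the cells held RAW 264.7 cells, a mouse macrophage line, with 0 micromolar ferric ammonium citrate (FAC). In RAW_FAC the same macrophages were present together with 100 micromolar FAC, a soluble ferric iron salt. The other 2 groups, alone and FAC, had further BNL CL.2 cells in the insert in place of macrophages, without and with the salt. Nothing in the labels says whether replicates were separate cultures, or which of the cells took up the iron. In RNA of a whole culture, fewer cells of a kind and less RNA per cell cannot be told apart. All values are log2 signals, and a difference is the mean of RAW_FAC minus the mean of RAW, n = 3 arrays each.

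Cells import iron bound to transferrin through the transferrin receptor, and the messenger RNA of that receptor is stabilised by iron regulatory proteins while cytosolic iron is scarce. Surplus iron is stored in ferritin or exported by ferroportin, and in the liver it induces hepcidin through bone morphogenetic protein (BMP) signals and SMAD proteins. Free ferrous iron promotes lipid peroxidation, against which cells use cystine import, glutathione and enzymes controlled by the transcription factor NRF2. Heme, the iron porphyrin, is broken down to iron, carbon monoxide and biliverdin, and its enzymes belong partly to the same NRF2 and BACH1 controlled set.

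The deposited RMA values of the 6 arrays were alike in overall level, which the normalization itself favours. Array medians over the 12 arrays ran from 5.63 to 5.68, arrays of RAW and RAW_FAC correlated at 0.9957 to 0.9983, and arrays within these groups at 0.9967 to 0.9981. The difference between 3' and 5' control probe sets, a sign of RNA degradation, was 0.0229 higher in RAW_FAC for Gapdh and 0.0246 lower for Actb (two-sided exact permutation p = 0.6 and 0.5, where the smallest possible p is 0.1). Of 22 macrophage markers, 20 had a mean below the median over all genes (6.82), and their mean log2 value was 5.29 to 5.35 on the RAW arrays and 5.29 to 5.33 on the RAW_FAC arrays. Lyz2 and Cd68, defining markers of macrophages, had means of 5.34 and 5.56 over the 12 arrays. Above the median gene were Laptm5 at 6.91 and Cd14 at 12.04, and Cd14 had a mean of 12.03 in the group alone, which held no macrophages. Of 15 hepatocyte markers, 12 were below the same median, among them albumin (Alb) at 5.20, whereas Hnf4a stood at 10.45, Apob at 11.82 and the fetal protein gene Afp at 9.04. With most hepatocyte markers below the median gene, the label of liver origin was not matched by a mature hepatocyte profile. Of 7 markers of bile duct and progenitor cells, 4 were below the same median, while Krt19 and Cd24a were at 13.32 and 13.62. All 10 endothelial markers were below the median gene. Probe sets differ in response, so these values describe signals and do not rank transcripts.

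No gene passed in the comparison of RAW_FAC with RAW when each group had 1 mean and no further term was fitted (limma, Benjamini-Hochberg adjusted p under 0.05). The count was 0 higher and 0 lower of 18194 genes, 0% in either direction, and the smallest adjusted p was 0.556. At an unadjusted p under 0.05 there were 1038 genes, beside 909.7 at this threshold if no gene differed. Arrays with the same replicate number deviated together in both groups, and with that number as a further term, called the replicate block here, 11 genes rose and 3 fell. These are 0.0605% and 0.0165% of the genes tested, and 2029 genes then had an unadjusted p under 0.05, 1135 of them higher. SE values below come from the fit with the block unless stated otherwise. The block takes all arrays of a number to deviate alike, but their residuals had a median correlation of 0.431 where both had or both lacked the salt and 0.315 otherwise, so blocked SE and p values may be understated. With the block fitted to the 6 arrays of RAW and RAW_FAC alone, 0 genes passed, and 0 passed when RAW replicate 1, RAW replicate 2, RAW_FAC replicate 2, or all arrays of number 1 or of number 2 were left out. One array decided other counts too: there were 4 higher and 3 lower without RAW replicate 3, 1 and 1 without RAW_FAC replicate 3, and 9 and 1 without RAW_FAC replicate 1. Arrays of the groups without macrophages entered the same fit, and without alone replicate 2, 11 genes were higher and 5 lower in RAW_FAC against RAW. With the mean of all probe sets of a gene in place of the highest one, Adam12, Adh7, Chpf2, Cp, Slc7a11 and Sqor were no longer called. Calr3 was called in that fit. No call held in all of the 15 blocked fits that left out an array or number. It held in 9 for Tfrc, Lce1i and Slc7a11, 8 for Blvrb, and 7 for Gclc and Slc48a1. For Adam12, Mettl7b and Sqor it held in 6, for Lbp and Reep6 in 4, for Adh7 and Cp in 2 and for Chpf2 in 1. The differences were small: 43 genes lay at 0.5 or above, 13 at -0.5 or below, and Tfrc was the single gene past 1 in either direction.

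Without regard to a threshold, 815 genes (4.48%) had all 3 RAW_FAC arrays above all 3 RAW arrays and 959 (5.27%) had them all below. In the 3 pairs of arrays with the same number, 2749 genes (15.1%) were higher with iron in every pair and 2794 (15.4%) lower in every pair. The median difference over all genes was -5.84e-06 and 49.99% of genes lay above 0. Counts for gene lists are read against these shares. Of 39 lists of pathways, 28 had a median above 0. Each list is drawn with its members in the plot of list members and medians.

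**Figure D1:**
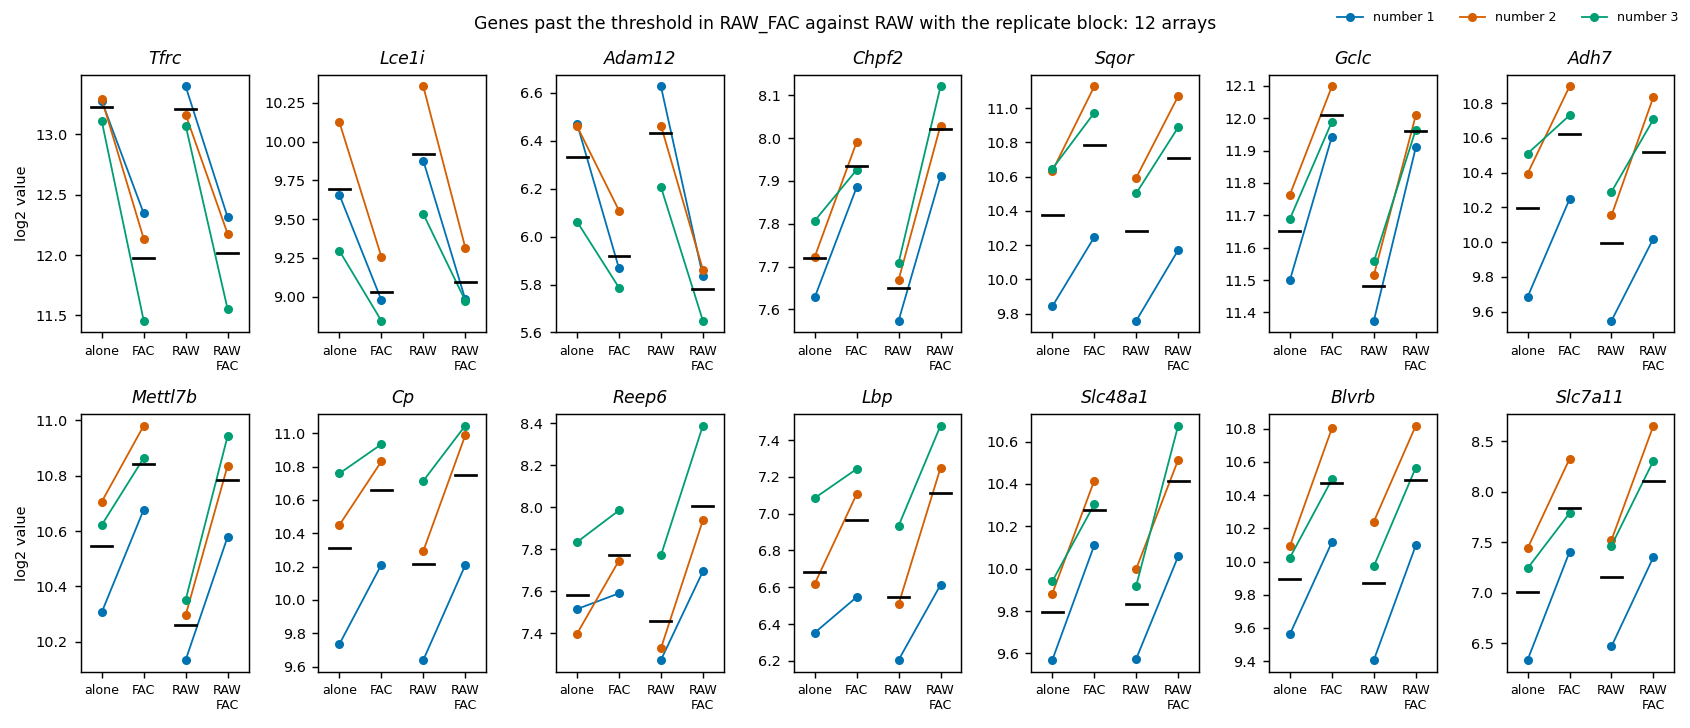
Log2 values of the 14 genes past the threshold with the replicate block on all 12 arrays, by group. Lines join arrays of the same replicate number (blue 1, orange 2, green 3), black bars are group means; every line from RAW to RAW_FAC has the sign of its gene's mean difference, while in 7 of the 14 genes the groups RAW and RAW_FAC overlap.

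Among genes of iron uptake, the transferrin receptor Tfrc fell. Its log2 values were 13.40, 13.16 and 13.07 on RAW replicates 1, 2 and 3 and 12.31, 12.18 and 11.55 on RAW_FAC replicates 1, 2 and 3. All iron-treated arrays lay below all untreated ones, and RAW_FAC replicate 3 was the lowest. The difference was -1.20 ± 0.13, a 2.29-fold lower signal (adjusted p = 0.0145 with the block), and each of the 6 probe sets of Tfrc was lower, by 0.25 to 1.32. For no other member of the uptake list of 15 genes was the test passed, and 1 was higher and 1, Tfrc itself, lower in all pairs. The higher one was Lcn2, lipocalin 2, which binds iron-loaded bacterial siderophores and is an acute phase protein. Lcn2 stood at 6.16, 5.67 and 6.62 in RAW and at 6.54, 6.88 and 7.57 in RAW_FAC. The groups overlapped, and the difference of 0.84 ± 0.19 did not pass (adjusted p = 0.161 with the block). Slc11a2, the ferrous iron importer DMT1, differed by -0.06 ± 0.06, while its other probe sets gave -0.45, -0.19 and 0.07.

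Genes of iron storage and export moved little apart from ceruloplasmin. Cp, a copper ferroxidase that lets exported iron bind transferrin, had values of 9.64, 10.29 and 10.71 in RAW and 10.21, 10.99 and 11.05 in RAW_FAC. Replicate 1 was lowest in both groups and the ranges overlapped, yet each pair was higher with iron, by 0.57, 0.69 and 0.33. Cp rose by 0.53 ± 0.08 (adjusted p = 0.0434 with the block), and its 8 probe sets were all higher, by 0.06 to 0.73. Without the block the SE was 0.32. The call was lost with median centring, quantile normalization or the mean of probe sets, and it held in 2 of 15 blocked fits that left out an array or number. Ncoa4, the receptor that carries ferritin to the lysosome, was 0.19 ± 0.05 higher and Slc25a28, a mitochondrial iron importer, 0.18 ± 0.05 higher, both with groups that did not overlap but adjusted p values of 0.225 and 0.281. The heavy ferritin chain Fth1 was near the top of the scale at 14.23 to 14.41 on all 6 arrays and differed by 0.06 ± 0.05. Ferroportin, Slc40a1, was 0.18 ± 0.09 higher, with pair differences of -0.10, 0.32 and 0.30.

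Hepcidin and its sensors gave no call. Hamp, which encodes hepcidin, had values of 4.58 to 4.84 on the 6 arrays and a difference of -0.08 ± 0.07, and Bmp6, its upstream ligand, 4.33 to 4.55 and -0.05 ± 0.09. Genes downstream of BMP and SMAD lay mostly below 0. Of the 15 members of that list, 13 were lower and 10 were lower in all 3 pairs (66.7%, beside 15.4% of all genes), with a median of -0.19, the lowest of the 39 lists. None passed the test. Id3, an inhibitor of helix-loop-helix factors, had values of 10.98, 10.82 and 10.34 in RAW and 10.61, 10.34 and 9.78 in RAW_FAC. The pairs differed by -0.37, -0.48 and -0.56 while the groups overlapped, and the mean difference was -0.47 ± 0.09 (adjusted p = 0.117 with the block). Dlx2, a homeobox gene, was at 7.36, 6.83 and 6.73 against 6.69, 6.59 and 6.49, with all treated arrays below the untreated ones (-0.39 ± 0.10, adjusted p = 0.221). Id1 differed by -0.32 ± 0.08, Atoh8 by -0.30 ± 0.10, Id2 by -0.27 ± 0.14, and the inhibitory SMAD genes Smad7 and Smad6 by -0.27 ± 0.08 and -0.25 ± 0.08. The list median was -0.10 without RAW replicate 1 and -0.25 without replicate number 3 of all groups.

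Cystine import and glutathione synthesis held 2 of the 11 genes that rose. Slc7a11, the cystine carrying subunit of the cystine-glutamate exchanger, was at 6.47, 7.52 and 7.47 in RAW and 7.35, 8.65 and 8.31 in RAW_FAC. Replicate 1 was the lowest array of both groups, so that the ranges overlapped, and the pairs differed by 0.89, 1.13 and 0.84. The difference of 0.95 ± 0.11 is a 1.94-fold higher signal (adjusted p = 0.0145 with the block), and the other probe set of the gene gave 0.28. Gclc, the catalytic subunit of the enzyme that limits glutathione synthesis, had 11.37, 11.51 and 11.56 in RAW and 11.91, 12.01 and 11.96 in RAW_FAC. Every treated array lay above every untreated one, and Gclc rose by 0.48 ± 0.05 (adjusted p = 0.0145 with the block, both probe sets higher). Its SE was 0.08 without the block and 0.05 with it, and number 1 was the lowest array in both groups. Gclm, the regulatory subunit of the same enzyme, was 0.34 ± 0.06 higher with separate groups (adjusted p = 0.0887), and Slc3a2, the heavy chain that partners Slc7a11, 0.42 ± 0.09 higher with separate groups (adjusted p = 0.160). Cth, which makes cysteine from cystathionine, differed by 0.38 ± 0.09, while Cbs, which makes the cystathionine, differed by -0.24 ± 0.07. Of the 14 members 10 were higher, 6 of them in all pairs and 2 lower in all pairs, with a median of 0.08.

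NRF2 is known to bind an antioxidant response element whose core is written TGACNNNGC. RefSeq promoter windows (GRCm38.p6, 250 bases before to 50 after each annotated start) were given for 28 of the 31 members of the glutathione list and the list of NRF2 quinone, thioredoxin and NADPH enzymes. On either strand 7 of these 28 genes held the core, beside 12.4% of all 32851 windows. The 28 genes had 37 windows, and a gene with several windows has more chances to match. A share of genes and a share of windows are therefore not like for like. The bases before the start are shown for Gclm and Txnrd1, the members with the largest positive differences whose core lies there, with the core in capitals. In both it runs on the opposite strand, as TGACGGTGC in Gclm (bases 117 to 125) and TGACAAAGC in Txnrd1 (bases 159 to 167). A match is a description of letters and not a binding site.
Gclm, chr3:122245307-122245556, plus strand: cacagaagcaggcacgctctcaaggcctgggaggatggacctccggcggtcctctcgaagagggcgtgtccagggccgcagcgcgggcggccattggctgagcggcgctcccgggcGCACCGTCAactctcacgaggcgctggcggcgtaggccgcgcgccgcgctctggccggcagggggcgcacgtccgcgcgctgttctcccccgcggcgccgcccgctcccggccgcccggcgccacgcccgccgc
Txnrd1, chr10:82858956-82859205, plus strand: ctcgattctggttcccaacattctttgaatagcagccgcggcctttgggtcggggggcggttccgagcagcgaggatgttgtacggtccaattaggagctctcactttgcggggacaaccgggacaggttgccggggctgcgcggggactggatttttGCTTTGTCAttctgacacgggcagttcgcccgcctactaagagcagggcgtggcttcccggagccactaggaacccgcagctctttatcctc
In Srxn1 and Pgd the core, TGACCTAGC on the opposite strand at bases 279 to 287 of the window in the former, lay past the annotated start, and Nfe2l2, which encodes NRF2, held it at bases 11 to 19. The other two genes with the core were Me1 and Ugdh, whose differences were 0.04 and -0.01.

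In the list of NRF2 enzymes, 16 of 17 members were higher, 14 of them in all 3 pairs (82.4%, beside 15.1% of all genes), with a median of 0.17. None passed the test, and the values were small. Nqo1, a quinone reductase, was at 5.76, 5.89 and 6.14 in RAW and 6.36, 6.54 and 6.54 in RAW_FAC, with every treated array above every untreated one (0.55 ± 0.09, adjusted p = 0.0599 with the block). Srxn1, which repairs overoxidised peroxiredoxin, was at 8.36, 8.53 and 8.63 against 8.75, 8.99 and 8.95, again without overlap (0.39 ± 0.06, adjusted p = 0.0599). Its other probe sets gave 0.28, 0.19 and 0.00. The NADPH-forming enzymes Idh1 and Pgd differed by 0.41 ± 0.08 and 0.27 ± 0.05 and thioredoxin reductase Txnrd1 by 0.19 ± 0.05, from 12.14 to 12.15 in RAW to 12.28 to 12.40 in RAW_FAC. Cbr3, a carbonyl reductase, differed by 0.36 ± 0.09 and Nfe2l2 by 0.10 ± 0.06.

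Among enzymes that conjugate or oxidise reactive compounds, Adh7 rose with the block. Adh7, an alcohol dehydrogenase that also oxidises retinol, had 9.55, 10.15 and 10.29 in RAW and 10.02, 10.84 and 10.71 in RAW_FAC. The low array was replicate 1 in both groups, and with the block Adh7 rose by 0.52 ± 0.07 (adjusted p = 0.0388), whereas its SE without the block was 0.27. The call was lost with quantile normalization or the mean of probe sets and held in 2 of the 15 leave-outs. Aldh3a1, an aldehyde dehydrogenase, was at 10.53, 12.04 and 11.99 against 11.75, 12.74 and 12.58. The pairs differed by 1.21, 0.69 and 0.59 within overlapping groups, and the difference of 0.83 did not pass (adjusted p = 0.0692 with the block). Of 20 glutathione transferases and exporters 15 were higher, 12 in all pairs, with a median of 0.18, or 0.11 without RAW replicate 1. Gsta2 led them at 8.50, 10.25 and 9.91 in RAW and 9.68, 11.23 and 10.51 in RAW_FAC (0.92 ± 0.17, adjusted p = 0.0874), followed by Gstm1 (0.47 ± 0.09), Mgst2 (0.42 ± 0.09), the exporter Abcc4 (0.42 ± 0.07) and Gsta3 (0.39 ± 0.09). Transferase genes are near copies of each other, so probes may not tell all of them apart.

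Heme handling held 2 further genes that rose. Blvrb, biliverdin reductase B, had 9.41, 10.24 and 9.97 in RAW and 10.10, 10.82 and 10.57 in RAW_FAC. Its pairs were even, at 0.69, 0.58 and 0.59, and Blvrb rose by 0.62 ± 0.06, 1.54-fold (adjusted p = 0.0145 with the block), although the groups overlapped. Slc48a1, which moves heme from endosomes and lysosomes to the cytosol, was at 9.57, 10.00 and 9.92 against 10.06, 10.51 and 10.67. All treated arrays were above the untreated ones, and Slc48a1 rose by 0.58 ± 0.07 (adjusted p = 0.0188, 2 of 2 probe sets higher). Heme oxygenase 1, Hmox1, had 8.74, 9.88 and 9.27 against 9.21, 10.30 and 9.87. Its pair differences of 0.47, 0.42 and 0.59 resembled those of Slc48a1, but the difference of 0.49 ± 0.11 did not pass (adjusted p = 0.160). Hpx, the plasma heme carrier hemopexin, was highest on replicate 1 of both groups (8.03 and 8.29, beside 6.45 to 7.24 on the other arrays) and differed by 0.41 ± 0.08 (adjusted p = 0.0874). Abcb6, a porphyrin transporter, differed by 0.28 ± 0.07. Among the 20 members, 16 were higher and 10 higher in all pairs, with a median of 0.08.

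Sqor, the mitochondrial enzyme that oxidises hydrogen sulfide, showed how the replicate number entered. It was at 9.76, 10.59 and 10.50 in RAW and 10.17, 11.07 and 10.89 in RAW_FAC. The array of number 1 was the lowest of each group, while the pairs differed by 0.41, 0.48 and 0.39. Sqor rose by 0.42 ± 0.05 (adjusted p = 0.0185 with the block) and had an SE of 0.30 without it. The other 6 genes of sulfide oxidation did not pass, with a median of 0.16 over the 7.

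**Figure D2:**
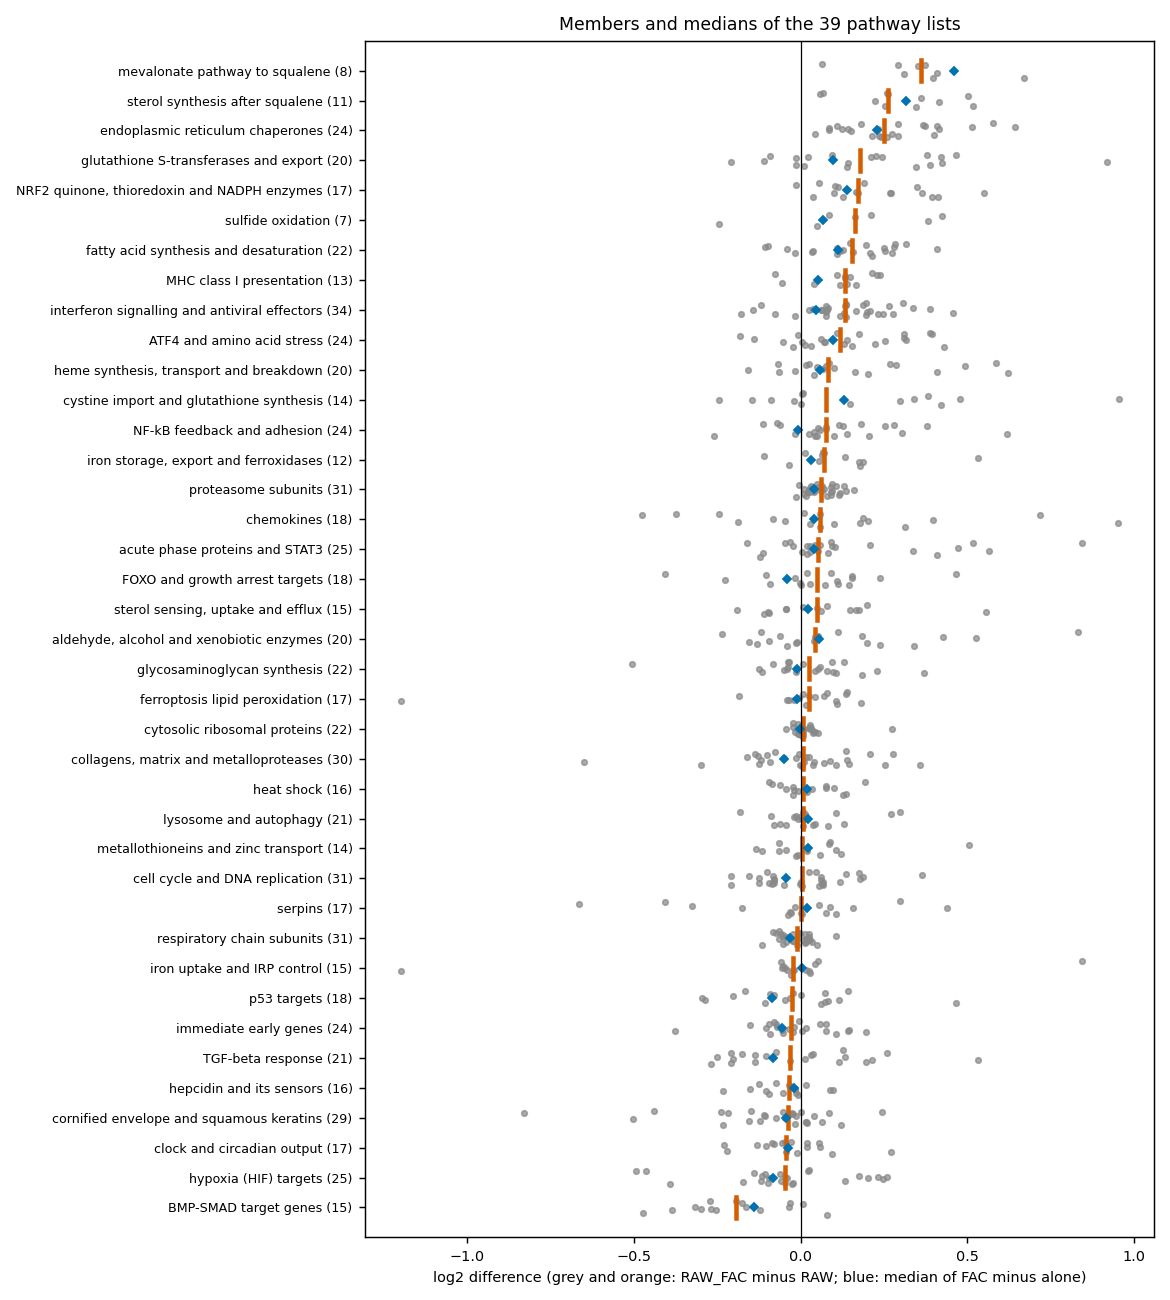
Log2 difference of RAW_FAC minus RAW for each member (grey points, 1 per gene; vertical jitter only separates points) of 39 pathway lists, with the number of members in brackets, the list median (orange bar) and the median of FAC minus alone (blue diamond). The sterol lists lie at the top with medians of 0.36 and 0.26 and the BMP-SMAD targets at the bottom with -0.19; the isolated points are Tfrc at -1.20 and genes such as Slc7a11 at 0.95.

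Genes of cholesterol synthesis were higher together, and none passed alone with the block over all genes. Mvd, Dhcr7 and Lss passed with the block when genes below the median level were left out. That filter called 64 genes higher and 12 lower, so this was not particular to sterol genes. Among them were Idh1, Pgd and Srxn1 of the NRF2 enzymes, Creld2, Hspa5 and Sdf2l1 of the chaperones, and the BMP-SMAD target Id3. All 8 members of the mevalonate pathway to squalene were higher, 7 of them in all 3 pairs (87.5%, beside 15.1% of all genes). Groups were separate for 6 of the members, beside 4.48% of all genes, and the list median was 0.36. All 11 members of sterol synthesis after squalene were higher, 10 in all pairs, with a median of 0.26. Mvd, which makes isopentenyl diphosphate from mevalonate diphosphate, had 7.69, 7.81 and 8.21 in RAW and 8.33, 8.56 and 8.83 in RAW_FAC. The groups were separate and the pairs differed by 0.64, 0.75 and 0.62, a mean of 0.67 ± 0.12 (adjusted p = 0.0692 with the block). Fdps and Idi1, the next enzymes toward squalene, differed by 0.41 ± 0.10 and 0.40 ± 0.10, Pmvk by 0.37 ± 0.10, Fdft1 by 0.35 ± 0.11 and Hmgcs1 by 0.31 ± 0.08. In the later steps, Dhcr7, which makes the final reduction to cholesterol, was at 8.55, 8.69 and 8.97 against 9.12, 9.06 and 9.58 without overlap (0.52 ± 0.09, adjusted p = 0.0692). Lss, which closes the sterol rings, differed by 0.50 ± 0.09 (0.34 and -0.03 by its other probe sets), Cyp51 by 0.41 ± 0.11 and Sqle, the squalene epoxidase, by 0.36 ± 0.08. Insig1, which holds the sterol-sensing complex in the endoplasmic reticulum and is itself a target of the factor SREBP2, was at 8.84, 8.94 and 9.47 against 9.54, 9.61 and 9.76 (0.55 ± 0.12, adjusted p = 0.140). The mevalonate median ranged from 0.27 to 0.50 when arrays or replicate numbers were left out.

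SREBP2 binds sterol regulatory elements, for which TCACCCCAC and the looser TCACNCCAC were searched on both strands. Of 34 measured members of the sterol lists 27 had a window, 38 windows in all. Among the 27 genes 1, Hmgcs1, held either form, beside 0.551% and 1.24% of all windows. Here too genes are set beside windows. The bases before its start are printed with the match in capitals (bases 114 to 122), since Hmgcs1 makes the precursor of mevalonate.
Hmgcs1, chr13:119690101-119690350, plus strand: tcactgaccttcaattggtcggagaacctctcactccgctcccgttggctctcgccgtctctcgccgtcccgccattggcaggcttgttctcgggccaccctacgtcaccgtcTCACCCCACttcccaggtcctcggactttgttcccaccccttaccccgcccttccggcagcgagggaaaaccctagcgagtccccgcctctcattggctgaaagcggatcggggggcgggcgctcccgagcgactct

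Fatty acid synthesis and desaturation had smaller differences of the same sign. Of 22 members, 18 were higher and 14 higher in all pairs, with a median of 0.15. Elovl6, an elongase of long-chain fatty acids, was at 9.59, 9.81 and 10.22 in RAW and 10.11, 10.15 and 10.60 in RAW_FAC, with overlapping groups and pairs of 0.52, 0.34 and 0.38 (0.41 ± 0.07, adjusted p = 0.0709). Acss2, which makes acetyl-CoA in the cytosol, differed by 0.31 ± 0.07 (0.15 and -0.19 by its other probe sets), and the desaturases Fads2 and Fads1 by 0.28 ± 0.07 and 0.25 ± 0.05.

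**Figure D3:**
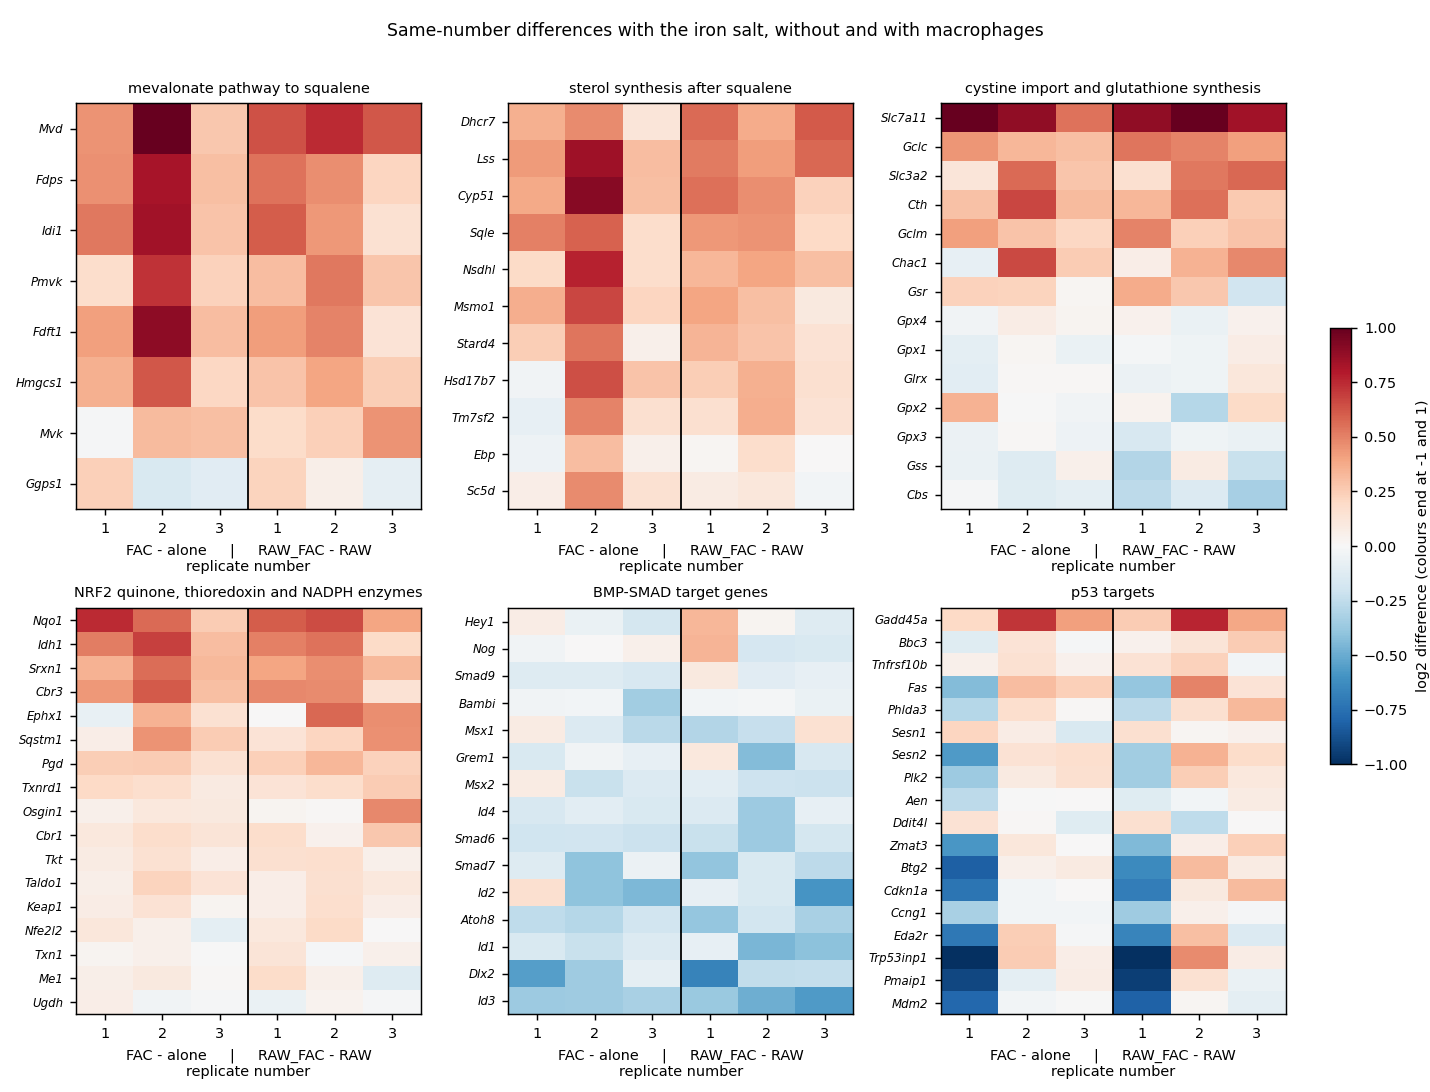
Heat map of log2 differences between arrays of the same replicate number (columns 1 to 3), for FAC minus alone (left) and RAW_FAC minus RAW (right), in 6 gene lists with 1 row per gene; red is higher with the iron salt and blue lower. The sterol genes are red in nearly all 6 columns, the BMP-SMAD targets mostly blue, and most p53 targets blue in column 1 of both comparisons.

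Chaperones of the endoplasmic reticulum were higher in 24 of 24 members and in all 3 pairs for 20 of them (83.3%), with a median of 0.25. None passed the test. Creld2, a secreted stress protein, had 10.47, 11.13 and 11.19 in RAW and 10.91, 12.02 and 11.58 in RAW_FAC. The pair of number 2 was farthest apart, at 0.89 beside 0.44 and 0.40, and the mean was 0.58 ± 0.10 (adjusted p = 0.0749 with the block). Sdf2l1 differed by 0.64 ± 0.13, Herpud1, of the degradation complex, by 0.51 ± 0.11, the disulfide isomerase Pdia4 by 0.41 ± 0.09 (-0.21 by its other, dimmer probe set) and the chaperone BiP, Hspa5, by 0.29 ± 0.06. The list median was 0.12 without RAW_FAC replicate 2 and 0.43 without RAW_FAC replicate 1. Targets of ATF4, the factor of the amino acid stress response, had a median of 0.12 with 19 of 24 members higher, but 0.03 without RAW_FAC replicate 2 and 0.26 without RAW_FAC replicate 1. In that list, pair 1 had a median of 0.02 and pairs 2 and 3 had 0.22 and 0.18. Ddit3, the stress factor CHOP, differed by 0.43 ± 0.13 and Trib3, a pseudokinase induced by it, by 0.39 ± 0.10.

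Among secreted proteins of inflammation, Lbp rose. This lipopolysaccharide-binding acute phase protein was at 6.20, 6.51 and 6.93 in RAW and 6.61, 7.25 and 7.48 in RAW_FAC. Each pair was higher with iron, by 0.41, 0.74 and 0.54, within overlapping groups, and the difference was 0.56 ± 0.08 (adjusted p = 0.0388 with the block, both probe sets higher). C8g, a complement subunit, had separate groups at 5.01, 5.02 and 5.16 against 5.28, 5.48 and 5.43 (0.34 ± 0.06, adjusted p = 0.0692). Saa3, serum amyloid A3, differed by 0.47 ± 0.12, and Osmr, the oncostatin M receptor, by 0.52 ± 0.12, although its other 2 probe sets gave -0.08 and -0.14. Il6 was at 3.08 to 3.79 on the 6 arrays and differed by -0.16 ± 0.16. Of 25 acute phase genes 19 were higher, 8 in all pairs, with a median of 0.05.

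Chemokines had small differences as a list, and 3 of them, Cxcl1, Ccl20 and Ccl2, differed widely between replicate numbers. Cxcl1, a neutrophil attractant, was at 11.25, 12.85 and 12.53 in RAW and 11.55, 13.16 and 12.85 in RAW_FAC. Number 1 was far below the others in both groups, and yet the 3 pairs were 0.30, 0.31 and 0.32 apart. The SE of its difference of 0.31 was 0.54 without the block and 0.05 with it (adjusted p = 0.0692). Unblocked, it turned to -0.17 once RAW replicate 1 was dropped, while it stayed within 0.30 to 0.33 in the blocked leave-outs. Ccl20, an attractant of dendritic and T cells, was at 8.32, 10.05 and 9.98 against 8.97, 11.48 and 10.74 (0.95 ± 0.17, adjusted p = 0.0793), and Ccl2, the monocyte attractant, differed by 0.40 ± 0.15, or by -0.17 unblocked once RAW replicate 1 was dropped and 0.23 to 0.58 in the blocked leave-outs. The 18 chemokines had a median of 0.06, with 4 members higher and 4 lower in all pairs. One of the lower ones was Ppbp, which differed by -0.47, with pairs of -0.44, -0.61 and -0.37. All RAW_FAC arrays lay above RAW for 0 members and below for 2, beside 4.48% and 5.27% of all genes. Interferon genes, 29 of 34 higher with a median of 0.13, spread by number in the macrophage groups: the list median on each array, taken after each gene's mean over the 12 arrays was subtracted, was -0.21, 0.08 and 0.22 on RAW replicates 1, 2 and 3 and -0.05, 0.18 and 0.34 on the RAW_FAC replicates. By pairs, the median difference of this list was 0.17, 0.08 and 0.16 for numbers 1, 2 and 3. Unblocked and without RAW replicate 1 it was -0.02.

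Both other genes that fell belong to the matrix and squamous sets. Lce1i, of the late cornified envelope family, was at 9.88, 10.36 and 9.53 in RAW and 8.98, 9.32 and 8.97 in RAW_FAC. The groups were separate and Lce1i fell by 0.83 (SE 0.09, adjusted p = 0.0145 with the block). Its single probe set is of a kind that can also match related transcripts, so the family member behind the signal is uncertain. Of the 29 members of the cornified list 20 were lower, 10 in all pairs, with a median of -0.04; Ivl, involucrin, differed by -0.50 ± 0.16 (0.00 by its other probe set) and Sprr1b by -0.44 ± 0.11. Adam12, a membrane metalloprotease of the disintegrin family, had 6.63, 6.46 and 6.21 in RAW and 5.83, 5.86 and 5.65 in RAW_FAC. The highest treated array lay below the lowest untreated one, and Adam12 fell by 0.65 (SE 0.08, adjusted p = 0.0151), with the other probe set at -0.17.

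The remaining genes that rose were Reep6, Mettl7b and Chpf2. Reep6, a protein of the endoplasmic reticulum membrane, was at 7.27, 7.33 and 7.77 against 7.70, 7.94 and 8.39 with overlapping groups (0.55 ± 0.08, adjusted p = 0.0388 with the block). Mettl7b, a methyltransferase of the same membrane, was at 10.13, 10.30 and 10.35 against 10.58, 10.84 and 10.94, without overlap (0.52 ± 0.06, adjusted p = 0.0151). Chpf2, which extends chondroitin chains, was at 7.57, 7.67 and 7.71 against 7.91, 8.03 and 8.12, also without overlap (0.37 ± 0.05, adjusted p = 0.0388), although its other probe set gave 0.02, and the call held in 1 of the 15 leave-outs. Csgalnact1, which starts the same chains, had separate groups in the opposite direction at 4.90, 4.86 and 4.63 against 4.26, 4.28 and 4.33 (-0.51 ± 0.08, adjusted p = 0.0510), but its other probe set gave 0.19 and the mean of both -0.16.

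Other genes with separate groups and large differences did not pass with the block over all genes. On the higher side they were BC080696 (0.82 ± 0.25), Tcstv1 (0.82 ± 0.23), AF067061 (0.73 ± 0.20), the calreticulin homolog Calr3 (0.76 ± 0.15) and Entpd5, a nucleotidase of the endoplasmic reticulum (0.53 ± 0.08, or 0.26 as the mean of its 6 probe sets). For BC080696 the RAW_FAC arrays ran from 5.88 to 7.35 while RAW stayed within 5.63 to 5.82, so that replicate 2 carried most of the difference. Pair 2 was also the widest for Tcstv1 (pairs of 0.46, 1.47 and 0.53) and Calr3 (0.53, 1.37 and 0.37). Calr3 and Entpd5 passed in some other blocked fits, as did Ccbe1, Ccng2 and Pfkfb4 on the lower side. On the lower side were the Notch ligand Dll1 (-0.52 ± 0.12), Ccbe1 (-0.47 ± 0.09), Gadd45g (-0.43 ± 0.18, with pairs of -0.93, -0.07 and -0.27), Ccng2 (-0.41 ± 0.08) and Fhod3 (-0.40 ± 0.10). Ankrd37 (-0.49 ± 0.14) and Pfkfb4 (-0.46 ± 0.10), both known targets of hypoxia-inducible factors, and Epas1 (-0.39 ± 0.09), which encodes HIF2 alpha, were lower without overlap. The other, dimmer probe set of Epas1 gave -0.07. The 25 hypoxia targets as a list had 17 lower members, 10 of them in all pairs, with a median of -0.05. Another 5 were higher in all pairs, among them Ndrg1 (0.26) and Slc2a1 (0.25). Groups were separate for 4 lower and 3 higher members, beside 5.27% and 4.48% of all genes.

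Targets of p53 split by replicate number, and the genes named here were chosen after their values were seen. In pair 1, 13 of 18 were lower with iron (median -0.35), in pair 2 16 of 18 were higher (median 0.16) and in pair 3 13 of 18 were higher (median 0.08). Mdm2, which marks p53 for degradation and is induced by it, was at 12.29, 11.57 and 11.57 in RAW and 11.48, 11.58 and 11.47 in RAW_FAC. RAW replicate 1 alone stood high. Trp53inp1 was at 10.41, 9.94 and 9.65 against 9.25, 10.41 and 9.72, and Pmaip1, the cell death gene NOXA, at 11.23, 10.86 and 10.55 against 10.29, 11.01 and 10.48. The arrays without macrophages had the same layout: Mdm2 was at 12.23, 11.51 and 11.51 in alone and 11.44, 11.49 and 11.50 in FAC. In that comparison 14 of 18 targets were lower in pair 1, 5 in pair 2 and 6 in pair 3. For 7 of the 18 targets, and for 6.88% of all genes, the replicate 1 arrays without iron of both culture types were above the other 10 arrays. What the replicate numbers stand for is not stated in the labels, and their part in this was not tested.

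**Figure D4:**
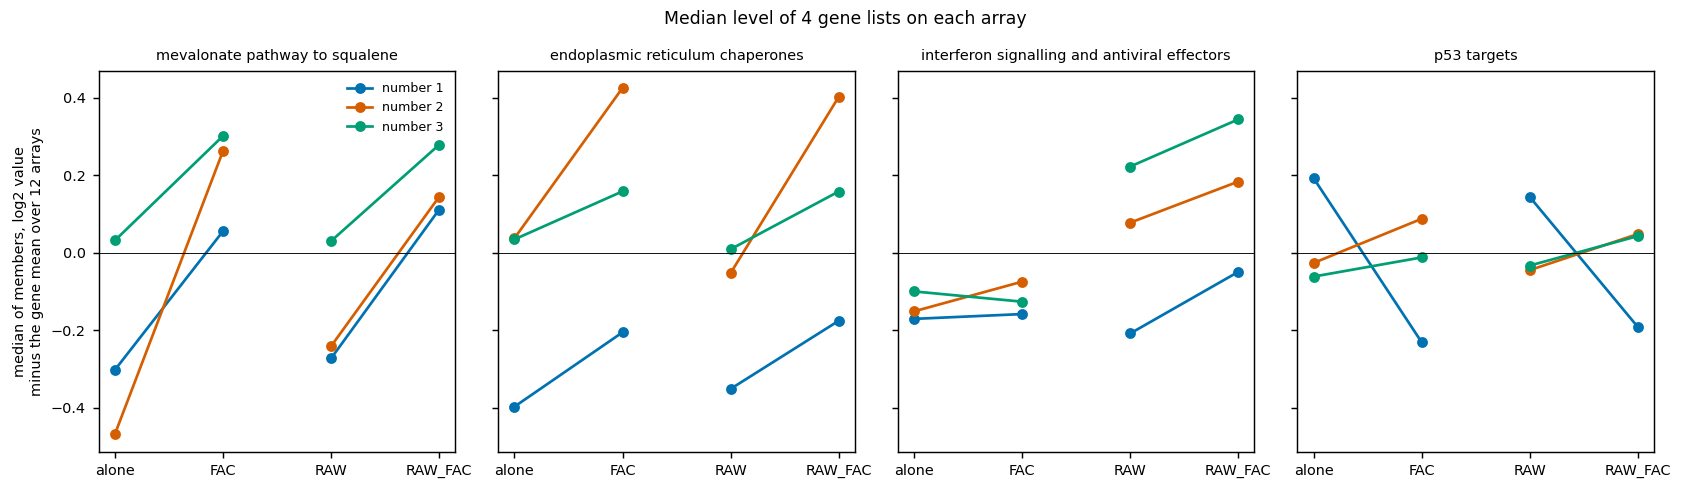
Median over list members of the log2 value minus the gene's mean over the 12 arrays, for 4 lists; each point is 1 array and lines join arrays of the same replicate number within a culture type. The mevalonate genes are higher with iron on every line, the chaperones and, in the macrophage groups, the interferon genes also stand apart by number, and the median of the p53 targets is lower with iron on the lines of number 1 and higher on those of 2 and 3.

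The same salt was compared without macrophages in FAC against alone, which shares no array with RAW_FAC against RAW. Of the 14 genes past the threshold with macrophages, 14 had the same sign without, 13 were larger with macrophages, as their choice on that comparison favours, and 4 also passed there with the block. Tfrc differed by -1.25 without and -1.20 with macrophages, Slc7a11 by 0.83 and 0.95, Blvrb by 0.58 and 0.62, Sqor by 0.41 and 0.42, and these 4 were the ones that passed in both. The gap was widest for Reep6, at 0.19 and 0.55, and Lbp, at 0.28 and 0.56. List medians without macrophages were 0.46 for the mevalonate pathway, 0.32 for later sterol synthesis, 0.23 for chaperones, 0.14 for NRF2 enzymes and -0.14 for BMP-SMAD targets. For the interferon list the medians were 0.04 without and 0.13 with macrophages. Over all genes the differences of the 2 comparisons correlated at r = 0.369, and at 0.680 over the 9097 genes at or above the median level; these are descriptions across genes, which are not replicates and share array processing.

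The test of whether the iron difference itself depended on macrophages (the interaction, in limma) called 0 of 18194 genes, 0% without and with the block, with smallest adjusted p of 0.9999 and 0.999. At an unadjusted p under 0.05 it had 540 genes without the block and 790 with it, beside 909.7 if no gene differed. For Tfrc the interaction was 0.05 ± 0.18, for Slc7a11 0.12 ± 0.15, for Gclc 0.12 ± 0.08 and for Reep6 0.36 ± 0.11. Among genes whose 3 pair differences with macrophages all exceeded those without, the largest gaps were for Eps8l3 (0.61 with and 0.03 without macrophages) and 3110040M04Rik (0.71 and 0.15). In the opposite direction they were Mycn (-0.64 and 0.09) and the chemokine Ccl5 (-0.37 and 0.23). Mycn, a growth-promoting transcription factor, was at 8.87, 7.61 and 7.83 in RAW and 7.24, 7.48 and 7.68 in RAW_FAC. RAW replicate 1 was again the high array, and the other probe sets of Mycn gave -0.11 and -0.09. For Mycn the blocked leave-outs ranged from -0.89 to -0.14. For Ccl5 they ranged from -0.65 to -0.04.

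**Figure D5:**
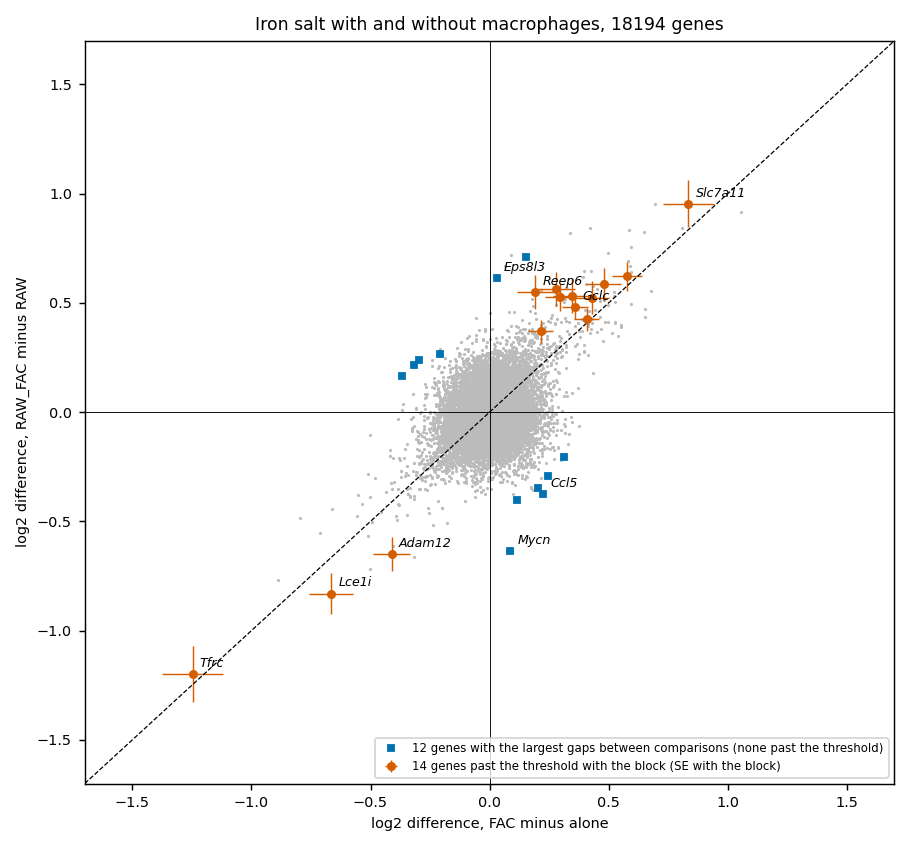
Log2 difference of RAW_FAC minus RAW (vertical) against FAC minus alone (horizontal) for 18194 genes (grey), with the 14 genes past the threshold in RAW_FAC against RAW (orange, bars are SE with the block) and the 12 genes named for the largest gaps between the comparisons (blue); the dashed line marks equal differences. Tfrc and Slc7a11 lie near the line at (-1.25, -1.20) and (0.83, 0.95), and Mycn and Eps8l3 lie away from it.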

How the data were processed

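RNA of the 12 samples, extracted with a Qiagen RNeasy kit per the labels' protocols, was measured on Affymetrix mouse arrays. The deposited values are log2 signals, which the authors made by RMA (the notes name affy), per the submitters' processing notes; tool versions are not given there. They ran from 2.42 to 14.6 and were used without further scaling. Of 45101 probe sets, 34958 had 1 gene symbol, 932 several and 9211 none. For the 9012 genes with several probe sets the one with the highest mean over 12 arrays was kept, giving 18194 genes. Any 2 arrays had identical values for at most 0.166% of probe sets. The 3 arrays per group limit the precision.

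In limma 3.58.1 (R 4.3.3) each of the 4 groups had its own mean over all 12 arrays (8 residual and 4.90 prior degrees of freedom, median residual SD 0.109), two-sided, with Benjamini-Hochberg adjustment over all genes at 0.05. The alternative with the replicate block had 6 and 4.48 degrees of freedom and a residual SD of 0.0915. Pairing rests on the replicate numbers in the sample titles: after group means were removed, RAW and RAW_FAC arrays with numbers 1, 2 and 3 correlated at 0.323, 0.284 and 0.362, all above 0.1, and arrays of other numbers at -0.271 to -0.103. Of all genes, 10.6% differed between replicate numbers. Since separate cultures are not stated, p values here reflect only sample-to-sample spread, which may be technical. The fit was tested on simulated data.

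The 39 pathway and 5 marker lists (845 of 922 entries measured), the genes and the comparison were chosen with earlier results of these data known, and lists are described by counts and medians alone. Genes named were those past the threshold with the block, the 12 highest and 12 lowest differences with separate groups, and 19 fixed genes. Further ones were up to 5 members of a list that moved one way in all pairs, and the largest gaps between comparisons. The p53 targets and some marker genes were named after their values were seen. Others named outside these rules included Hspa5, Hmgcs1, Pgd, Txnrd1, Nfe2l2, Fads1, Smad6, C8g, Me1 and Ugdh. Alternatives were other scalings, probe set choices, filters, moderation, array weights, subsets of arrays and leaving out each array. Promoters are RefSeq sequences. Tables and plots used Python 3.11.15, pandas 2.3.3 and matplotlib 3.10.9.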

Additional observations from a re-analysis of the deposited data

Results flagged for a closer look

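For 5 of the genes named for the largest gaps between the comparisons, every same-number pair went one way with iron beside macrophages and the opposite way without them. The difference between the comparisons (RAW_FAC minus RAW, less FAC minus alone) was 0.5356 for Ing4, 0.5293 for Cabp5, 0.4754 for Cpa5, -0.5204 for Fhod3 and -0.5360 for Nhlh2. None passed the interaction test in limma, with an adjusted p of at least 0.999 with the block. Over all genes, 431 showed opposite signs in 3 of 3 pairs of each comparison, so the pattern was not rare. The means of these 5 genes over the 12 arrays were 4.19, 5.45, 4.34, 4.43 and 3.66, all below the median gene at 6.82.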

How the results depend on the processing

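Without the replicate block, every setting run (6 arrays, array weights, median centring, quantile normalization, dim genes left out, other probe set choices, trend and robust moderation, each array left out) gave 0 calls, and the interaction gave 0 in every setting in which it was fitted. With the block there were 11 higher and 3 lower, with median centring as well 9 and 4, with quantile normalization 8 and 4, and with the mean of all probe sets 7 and 2. Leaving out genes below the median level gave 64 and 12, and trend and robust moderation 108 and 27, and the cause was not tested; these lists shared 64 genes, 84.2% of the first and 47.4% of the second. Leaving out arrays or numbers gave 0 to 15 higher and 0 to 5 lower. Values under other settings were kept for 105 genes, which did not include Hspa5, Hmgcs1, Pgd, Txnrd1, Nfe2l2, Fads1, Smad6 and C8g. Of these 4342 values, 4305 kept their direction. The 37 that reversed were Alb under quantile normalization (0.0182) and leave-out values, whose cause was not tested. The ranges on leaving out an array or number, over fits without and with the block, were -0.173 to 0.916 for Ccl2, -0.168 to 0.794 for Cxcl1 (with the block alone 0.229 to 0.578 and 0.298 to 0.326), -0.149 to 0.021 for Hamp, -0.106 to 0.0055 for Bmp6, -0.388 to 0.0968 for Il6, -0.104 to 0.110 for Alb, -0.281 to 0.0715 for Lyz2, -0.102 to 0.184 for Cd68, -0.768 to 0.124 for Ccl5, -0.296 to 0.205 for Cdkn1a, -0.504 to 0.0402 for Pmaip1, -0.542 to 0.276 for Trp53inp1 and -0.185 to 0.0178 for Ccng1. Signals near background limit Hamp, Bmp6, Il6, Alb and the macrophage markers, and 3 arrays per group limit all tests.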
